A study of Homo sapiens with 3 samples.

Results

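The lysosome is the acidic compartment in which cells break down proteins, sugars, lipids and sulfated glycans. Its lumen holds soluble hydrolases, and its membrane carries heavily glycosylated proteins, transporters and channels. The vacuolar ATPase (V-ATPase) acidifies it: a peripheral V1 sector hydrolyses ATP and turns a rotor that drives protons through the membrane sector V0. The members described here are 47 genes of this system, namely soluble enzymes, membrane proteins and V-ATPase subunits, chosen by gene symbol from a fixed list. The list holds 48 entries because GUSB stands in it 2 times. All 47 symbols were found among the 12040 genes of the deposited table.

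Poly(A) RNA was sequenced from HEK293 cells, a human embryonic kidney line, and every group shared 1 line with T-Rex, FLP-IN and FLAG:DICER1 in its name. The groups were a mock transfection, a DICER1 knockdown and a DROSHA knockdown by transfected RNAi, each with 1 library and the label 2.5d, whose meaning the labels do not give. DICER1 and DROSHA encode the RNases that make miRNAs from their precursors, and the design asks how their depletion alters transcript levels. The table's columns carry no names, so no column was tied to a group. It holds levels for a denominator library and for 2 numerator libraries, here called the first and the second, and both comparisons use the same denominator. Levels are in a unit that the table does not state and are compared only within a gene. A fold change is the log2 of (level + 1) over (denominator level + 1), which understates the change of genes with low levels. Each group has a single library, so neither replicate error nor a test can be given, and every value describes these libraries only. The words rose and fell are kept for log2 fold changes of 0.5 or more in size (1.41-fold). In bulk RNA, fewer cells of a type and less RNA per cell cannot be told apart.

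DICER1 was at a level of 15.7 in the denominator library, 5.72 in the first numerator library and 24.0 in the second. DROSHA was at 23.3, 21.4 and 6.72. These rows were not used to name the columns, and whether reads of FLAG:DICER1 enter the DICER1 row was not tested. Of 8 genes often seen in HEK293 cells, 6 were listed in the table and NEFM and PAX2 were not. Of 7 leukocyte and macrophage genes, CD68 alone was listed, at levels of 2.98, 2.85 and 4.07. CD68 also stands among the further lysosomal membrane proteins described last, with log2 fold changes of -0.05 and 0.35. Across the genes of the table, the Spearman rho between the GC content of the transcript and the fold change was 0.38 and -0.28 in the first and the second comparison (11366 genes, which are not independent). For the first fold change minus the second it was 0.46. The members' transcripts had a median GC content of 52.7%, against 48.7% for those genes. After least-squares adjustment for length, 3′ UTR length and GC content the members' median was -0.0058 and 0.14 in the first and the second comparison.

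As a group the members stayed near the denominator library in the first comparison and lay above it in the second. In the first comparison their median log2 fold change was 0.04 and that of all 12040 genes was 0.03. Of the members 28 of 47 were above 0 (59.6%, against 56.5% of all genes). None rose and 1 fell, where 1.46% of all genes rose and 2.04% fell. In the second comparison their median was 0.14, against 0.0063 over all genes, and 37 of 47 were above 0 (78.7%, against 51.1% of all genes). Much of this lay in the V-ATPase: its 14 members had a median of 0.24. The other 33 members had a median of 0.05, with 23 above 0 (69.7%). CTSA, TPP1, MAN2B1, MCOLN1 and LAMP1 rose, which is 5 of 47, where 2.33% of all genes rose. CTSZ alone fell, where 5.59% of all genes fell. The other 41 members moved by less than 0.5.

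**Figure D1:**
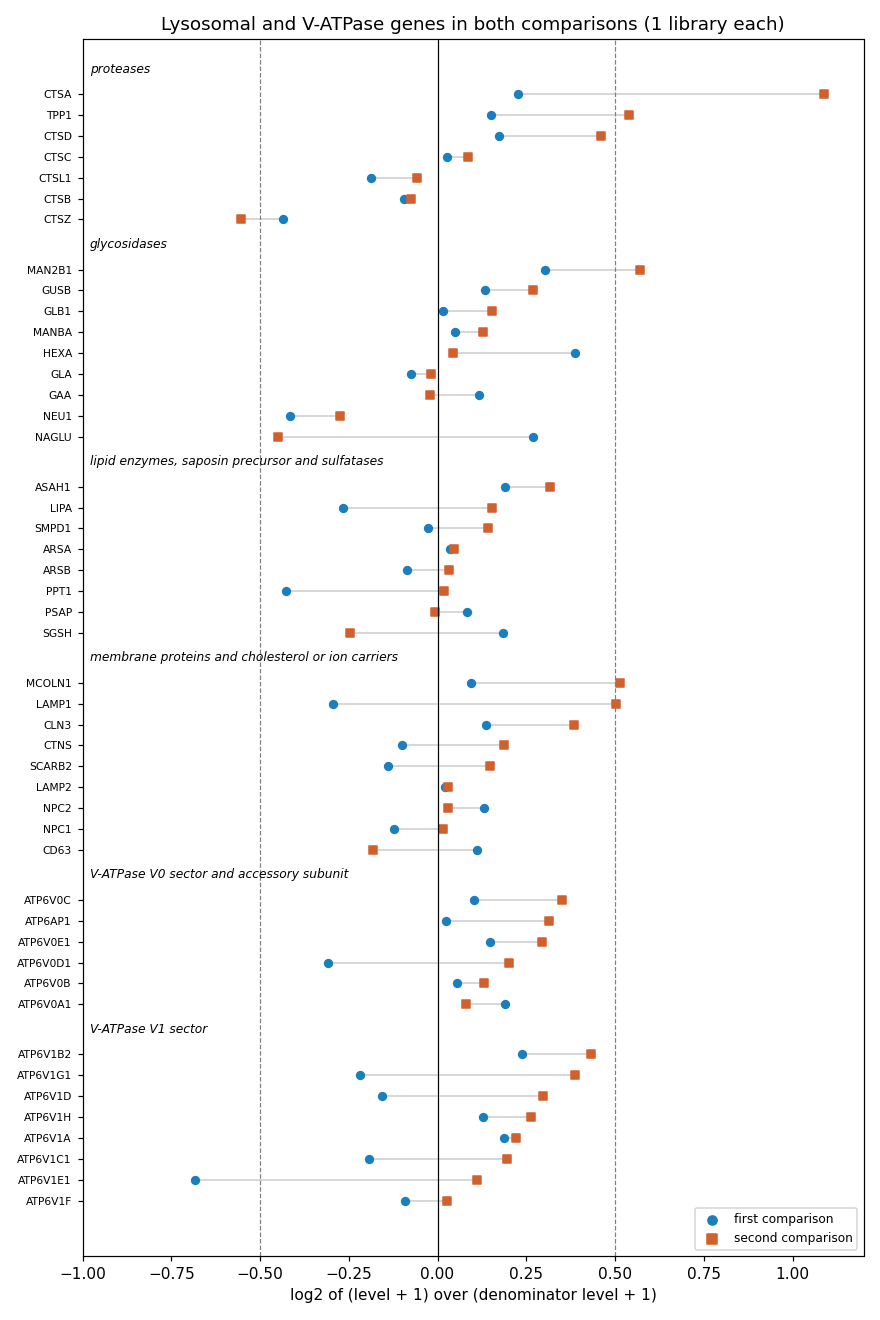
Log2 fold change (x axis) of each of the 47 members (rows, by role) in the first comparison (blue circles) and the second (orange squares), with dashed lines at -0.5 and 0.5. CTSA stands apart at 1.09 in the second comparison, and all 14 V-ATPase rows have their square to the right of 0.

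The soluble proteases include the cathepsins and tripeptidyl peptidase. CTSA, the serine carboxypeptidase that also protects beta-galactosidase and neuraminidase in a shared complex, was at a level of 14.4 in the denominator library, 17.0 in the first numerator library and 31.8 in the second. The second library was thus the high one, with log2 fold changes of 0.23 and 1.09. In the second comparison CTSA ranked 5 from the highest of the 12040 genes. Its exons overlap those of NEURL2 and PLTP on the opposite strand in GENCODE 29, and neither gene is listed in the table. No source used here says whether counting used strand.

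TPP1, which removes tripeptides from the ends of proteins, was at 8.13 in the denominator library, 9.14 in the first and 12.3 in the second. Its log2 fold changes were 0.15 and 0.54. CTSD, the main aspartic protease of the lysosome, was at 26.8, 30.4 and 37.3, which gives fold changes of 0.17 and 0.46 on the log2 scale. In all of these 3 protease genes the second numerator library had the highest level. CTSZ, a cysteine carboxypeptidase, went the other way, from 15.5 in the denominator library to 11.2 in the first and 10.2 in the second. Its log2 fold change was -0.43 and -0.55 in the first and the second comparison, and after the adjustment for length and GC content it no longer fell. The remaining cysteine cathepsins CTSB, CTSC and CTSL1 lay between -0.19 and 0.03 in the first comparison and between -0.07 and 0.09 in the second. The proteases therefore did not share a direction in the second comparison, with 4 of 7 above 0.

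CTSA works in a complex with the glycosidases GLB1 and NEU1, and the members of that complex differed. GLB1, beta-galactosidase, was at levels of 11.6, 11.8 and 13.1 in the denominator, first and second libraries, with log2 fold changes of 0.02 and 0.15. NEU1, the lysosomal sialidase, was at 17.2, 12.7 and 14.1, lowest in the first library, with fold changes of -0.42 and -0.28. NEU1 was thus below the denominator library in both comparisons, and CTSA above it.

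Among the other glycosidases, MAN2B1, the lysosomal alpha-mannosidase, was at 14.3, 17.8 and 21.7, and both numerator libraries were above the denominator. Its log2 fold changes were 0.30 and 0.57. HEXA, the alpha subunit of beta-hexosaminidase, was at 19.7, 26.1 and 20.4, with log2 fold changes of 0.39, the highest of any member in the first comparison, and 0.04. NAGLU, which takes N-acetylglucosamine from heparan sulfate, was at 9.28, 11.4 and 6.52. It was the member that differed most towards the first library, with log2 fold changes of 0.27 and -0.45. GLA, GAA, GUSB and MANBA, which act on galactosyl lipids, glycogen, glucuronides and beta-mannosides, lay between -0.08 and 0.13 in the first comparison and between -0.02 and 0.27 in the second. GUSB has pseudogene copies in the genome, so its value is uncertain.

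Enzymes of lipid and sulfate breakdown had medians near 0. Over 8 genes these were 0.0050 and 0.04 in the first and the second comparison. None passed 0.5, as was so for 11618 and 11086 of all 12040 genes. PPT1, which removes palmitate from proteins, was at 58.0, 42.9 and 58.7, low in the first library only, with log2 fold changes of -0.43 and 0.02. LIPA, the acid lipase for cholesteryl esters, was at 23.2, 19.1 and 25.9, with fold changes of -0.27 and 0.15. ASAH1, acid ceramidase, was the highest of the group in both comparisons, at 15.0, 17.2 and 18.9, or 0.19 and 0.32 on the log2 scale. SGSH, the sulfamidase of heparan sulfate, was at 6.47, 7.50 and 5.30, with fold changes of 0.18 and -0.25. SGSH acts on the same glycan as NAGLU, and both were highest in the first library and lowest in the second. Neither passed 0.5 in either comparison. The SGSH and NAGLU transcripts had GC contents of 62.1% and 64.4%, above the members' median of 52.7%. Other genes of that glycan's breakdown were not compared with this pair, and a shared cause was not tested. PSAP, the precursor of the saposins that help enzymes reach lipids, stayed near its denominator level of 115, at 122 and 114. SMPD1, ARSA and ARSB, an acid sphingomyelinase and a pair of sulfatases, had denominator levels from 1.52 to 3.38 and had log2 fold changes from -0.09 to 0.14 over both comparisons.

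The membrane proteins had medians of 0.02 and 0.15 in the first and second comparisons, and in the second 8 of 9 were above 0. MCOLN1, the calcium channel mucolipin, was at 6.47, 6.98 and 9.67, highest in the second library. Its log2 fold changes were 0.09 and 0.51, and its exons overlap those of PNPLA6 on the same strand, which was at 0.18 and -0.06. LAMP1, a major glycoprotein of the lysosomal membrane, was at 41.2, 33.4 and 58.7, with log2 fold changes of -0.29 and 0.50. With fold changes re-centred on the median of all genes, LAMP1 no longer passed 0.5. The denominator library lay between the numerator libraries for LAMP1. LAMP2, its close relative, was at 19.8, 20.1 and 20.2, within 0.03 of 0 on the log2 scale in both comparisons. CLN3, a membrane protein lost in juvenile Batten disease, was at 14.7, 16.2 and 19.5, or 0.14 and 0.38 as log2 fold changes. CD63, a tetraspanin of late endosomes and lysosomes, was the lowest of the group in the second comparison, at 132, 142 and 116, or 0.11 and -0.18. The cystine carrier CTNS, the receptor SCARB2 that delivers beta-glucocerebrosidase, and the cholesterol carriers NPC1 and NPC2 lay between -0.14 and 0.13 in the first comparison and between 0.01 and 0.19 in the second.

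**Figure D2:**
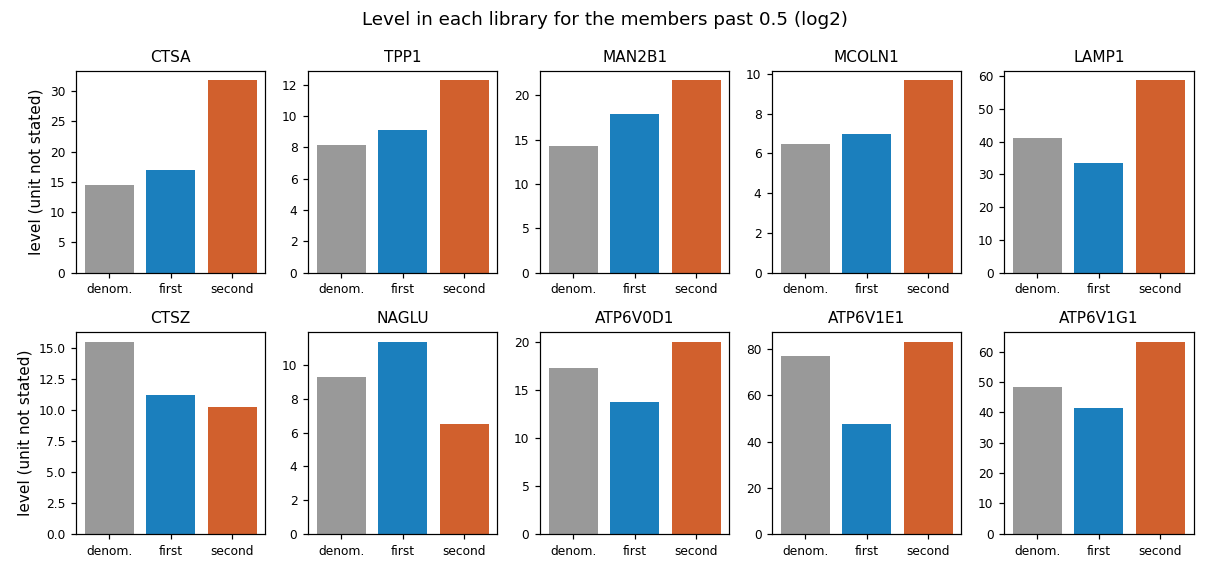
Level (y axis, from 0, unit not stated, own scale per gene) in the denominator library (grey), the first numerator library (blue) and the second (orange), 1 library a bar, for the 10 members that passed 0.5 in either comparison or in their difference. The second library is highest in all but CTSZ and NAGLU, where it is lowest.

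The 14 V-ATPase subunits among the members lay on one side of 0 in the second comparison. All 14 were above 0, where 51.1% of all genes were, between 0.03 and 0.43 with a median of 0.24. None reached 0.5, where 2.33% of all genes did. Of the further subunits described last, ATP6V0E2, TCIRG1, ATP6V0A2 and ATP6V1G2 were below 0 there, and ATP6AP2 and ATP6V1C2 above. After the adjustment for length and GC content ATP6V0C was at 0.5 or more. The V0 sector with its accessory subunit had a median of 0.25 (6 genes) and the V1 sector 0.24 (8 genes). With that adjustment the V0 median was higher, at 0.28, and the V1 median lower, at 0.18. The 33 members outside the V-ATPase had a median of 0.05. In the first comparison 8 of the 14 were above 0 (57.1%, against 56.5% of all genes), with a median of 0.04. By sector, 5 of 6 genes of V0 were above 0, with a median of 0.08. Of V1, 3 of 8 were, with a median of -0.12.

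ATP6V1E1, a stalk subunit of V1, was the 1 member that fell in the first comparison. Its level was 77.1 in the denominator library, 47.6 in the first numerator library and 83.3 in the second, so that the first library alone was low. The log2 fold changes were -0.68 and 0.11, and it ranked 85 from the lowest of the 12040 genes in the first comparison. ATP6V0D1, which links the rotor to V1, was also low in that library, at 17.3, 13.8 and 20.0, or -0.31 and 0.20 on the log2 scale. ATP6V1G1, another stalk subunit, was at 48.2, 41.3 and 63.3, with log2 fold changes of -0.22 and 0.39. ATP6V1B2, a subunit of the ATP-hydrolysing ring, was above the denominator in both, at 38.3, 45.3 and 52.0, or 0.24 and 0.43. ATP6V1A, its catalytic partner in the ring, was at 15.2, 17.4 and 17.9, or 0.19 and 0.22.

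ATP6V0C, the proton-carrying ring subunit, had the highest V0 fold change in the second comparison, with levels of 73.0, 78.4 and 93.4 and log2 fold changes of 0.10 and 0.35. It has pseudogene copies, and its exons overlap those of 2 other protein-coding genes on the same strand in GENCODE 29, so its value is uncertain. ATP6V0A1, which carries protons together with the ring, was the lowest of V0 in the second comparison, at 17.2, 19.8 and 18.3, or 0.19 and 0.08. ATP6V1F, of the V1 rotor, was the lowest of all 14 there, at 184, 172 and 187, or -0.09 and 0.03. ATP6V1D, the central rotor shaft, was at -0.16 and 0.30, and EIF2S1, whose exons overlap it on the opposite strand, at -0.19 and 0.24. The other subunits ATP6AP1, ATP6V0B, ATP6V0E1, ATP6V1C1 and ATP6V1H lay between -0.19 and 0.15 in the first comparison and between 0.13 and 0.31 in the second. Exons of MAN2B1, CTSD, HEXA, GLB1 and CLN3 also overlap other protein-coding genes of GENCODE 29 on the same strand, and those of LIPA, NPC1, NPC2, PPT1, SGSH, CLN3 and ATP6V1F on the opposite strand, so reads there cannot be assigned with certainty.

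The first minus the second fold change sets the numerator libraries against each other and cancels the shared denominator. Its median was -0.14 for the members, against 0.02 over all genes. Of the members 38 of 47 were below 0, where 5612 of all 12040 genes were. NAGLU alone was at 0.5 or more, with 0.72, where 8.6% of all genes were. CTSA at -0.86, LAMP1 at -0.80, ATP6V1E1 at -0.79, ATP6V1G1 at -0.60 and ATP6V0D1 at -0.51 were at -0.5 or less, which is 5 of 47, where 4.82% of all genes were. All 8 genes of V1 were below 0, with a median of -0.29, and so were 5 of 6 genes of V0, with ATP6V0A1 at 0.11. Adjusted for length and GC content, the medians were -0.24 for V1 and -0.35 for V0. After the adjustment for length and GC content NAGLU and ATP6V1G1 were no longer past 0.5, while ATP6V0C, CTSD and MCOLN1 were at -0.5 or less. ATP6V1D at -0.46, PPT1 at -0.44, LIPA at -0.42 and MCOLN1 at -0.42 followed in the values as they stand, and SGSH at 0.43 and HEXA at 0.34 stood at the other end.

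**Figure D3:**
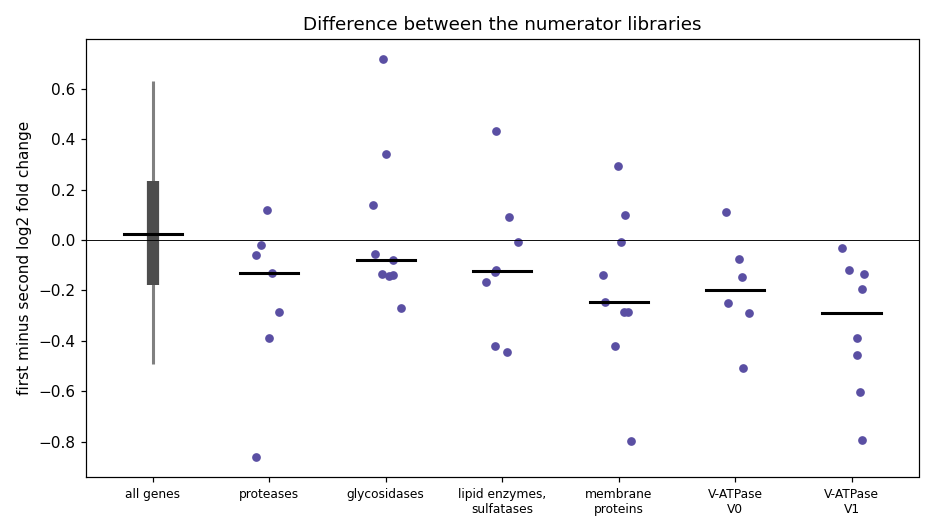
First minus second log2 fold change (y axis) for all 12040 genes (thin bar from the 5th to the 95th percentile, thick bar the quartiles) and for the members by role (points), with medians as black lines. Without adjustment for GC content and lengths, the medians of all 6 role groups lie below 0. They run from -0.08 for the glycosidases to -0.29 for V1, while that of all genes is 0.02.

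Many lysosomal genes are known to be driven by TFEB and its relatives, which bind an E-box element around CACGTG near the start site. Promoter windows from RefSeq (GRCh38.p14), from 250 bases before to 50 after the gene start, were matched for 33 of the 47 members and 9483 genes of the table. On both strands, CACGTG was found in 11 of 33 members (33.3%), against 10.6% of the table's genes and 7.43% of all 27305 windows. The longer TCACGTG, which contains it, was in 10 of 33 (30.3%, against 6.15% of the table's genes and 3.82% of all windows). The symmetric TCACGTGA, which contains both, was in 7 of 33 (21.2%, against 2.07% and 1.04%). The 7 were CTSA, GAA, LAMP1, MCOLN1, CLN3, ATP6V0D1 and ATP6V1G1. In the second comparison those 7 had a median of 0.39 and the other 26 members with a window 0.12. Over the whole table the medians with and without TCACGTGA were 0.05 and 0.02. For CACGTG the members' medians were 0.38 with it and 0.13 without, and over all genes with a window 0.0074 and 0.02. The 116 further lysosomal genes with a window, from the lists described last, had second-comparison medians of 0.06 with CACGTG and 0.11 without, the opposite order to the members. For TCACGTG theirs were 0.04 and 0.11, and for TCACGTGA, in 13 of 116, they were 0.23 and 0.07. In the first comparison the 7 had a median of 0.09 and the other 26 one of -0.05. A match is a description of letters, and binding was not measured here.

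The windows of the 3 members that rose in the second comparison and hold TCACGTGA are shown whole, 5′ to 3′ on the gene's strand, with TCACGTGA in capitals. CTSA lies at chr20:45891085-45891384 (plus strand) with 1 match, LAMP1 at chr13:113296989-113297288 (plus) with 2, and MCOLN1 at chr19:7522374-7522673 (plus) with 2. Counting shorter matches, CACGTG occurs 2 times in the CTSA window, 6 times in that of LAMP1 and 2 times in that of MCOLN1. The windows of TPP1 and MAN2B1, which rose as well, hold no CACGTG.
CTSA: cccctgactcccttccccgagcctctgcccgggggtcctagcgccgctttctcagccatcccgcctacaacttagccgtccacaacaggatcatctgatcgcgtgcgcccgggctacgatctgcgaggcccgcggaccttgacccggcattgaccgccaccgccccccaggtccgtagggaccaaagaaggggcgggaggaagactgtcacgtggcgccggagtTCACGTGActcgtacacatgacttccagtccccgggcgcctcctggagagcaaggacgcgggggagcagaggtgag
LAMP1: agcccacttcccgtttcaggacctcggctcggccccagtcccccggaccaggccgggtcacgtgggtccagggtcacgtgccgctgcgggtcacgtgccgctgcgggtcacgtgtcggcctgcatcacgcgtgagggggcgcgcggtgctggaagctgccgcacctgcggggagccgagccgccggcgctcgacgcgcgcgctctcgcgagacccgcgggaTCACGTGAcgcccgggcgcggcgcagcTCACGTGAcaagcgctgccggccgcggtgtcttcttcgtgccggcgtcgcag
MCOLN1: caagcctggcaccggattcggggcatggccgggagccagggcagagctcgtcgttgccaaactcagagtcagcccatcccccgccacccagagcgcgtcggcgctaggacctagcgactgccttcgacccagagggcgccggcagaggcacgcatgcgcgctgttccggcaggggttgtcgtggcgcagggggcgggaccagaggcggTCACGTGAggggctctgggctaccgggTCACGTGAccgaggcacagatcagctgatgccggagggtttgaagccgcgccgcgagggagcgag

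For the other 4 members with the element, 40 bases around the match nearest the 5′ end of the window show its flanks. They lie at chr17:80101488-80101527 (GAA, plus strand), chr16:28492053-28492092 (CLN3, minus), chr16:67481194-67481233 (ATP6V0D1, minus) and chr9:114587694-114587733 (ATP6V1G1, plus), all on GRCh38.p14. ATP6V1G1, CLN3 and ATP6V0D1 were at 0.39, 0.38 and 0.20 in the second comparison. GAA, with 2 matches, was at -0.02, the lowest of the 7, so that the element stands in members that moved little too.
GAA: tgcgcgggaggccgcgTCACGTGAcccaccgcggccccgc
CLN3: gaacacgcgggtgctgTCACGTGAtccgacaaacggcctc
ATP6V0D1: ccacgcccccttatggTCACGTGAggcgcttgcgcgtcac
ATP6V1G1: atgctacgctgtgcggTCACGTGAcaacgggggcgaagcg

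**Figure D4:**
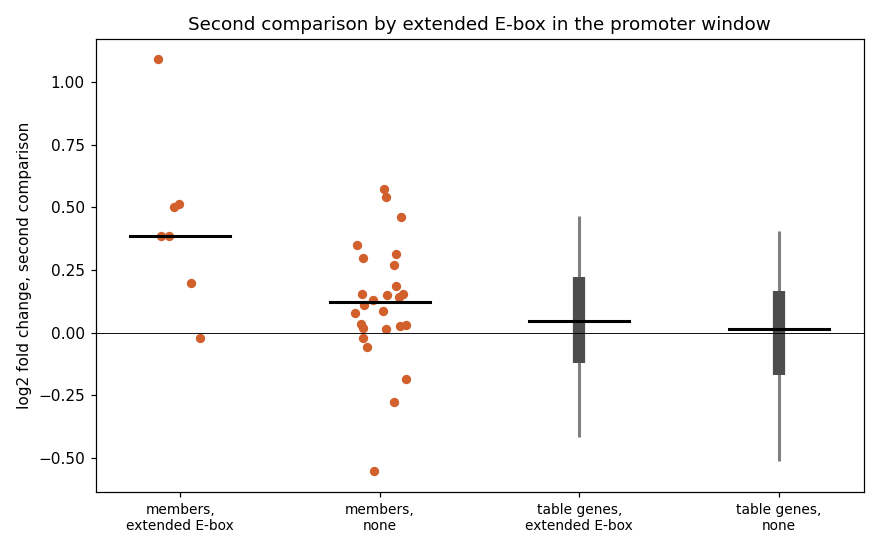
Log2 fold change in the second comparison (y axis) of the 7 members with the extended E-box TCACGTGA in the promoter window and the 26 without (points), and of the 196 and 9287 genes of the table with and without it (thin bar from the 5th to the 95th percentile, thick bar the quartiles). Black lines are medians: 0.39, 0.12, 0.05 and 0.02.

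MicroRNAs pair with their targets through bases 2 to 8, the seed, mostly in 3′ UTRs, and both targeted enzymes act in their maturation. Matches to the seeds of 6 miRNAs were searched in the 3′ UTRs of 46 members and 11132 genes with at least 50 bases of UTR in GENCODE 29. The site of miR-17-5p, GCACTTT, was in 8 members (17.4%, against 23.5% of all genes). Those 8 had a median of 0.30 in the second comparison, against 0.13 for the other 38 members, and 0.06 and -0.0062 for all genes with and without it. In the first comparison the order was the opposite, -0.04 with the site and 0.05 without it for the members, and 0.01 and 0.03 for all genes. The carriers were CTSA, CTSB, ASAH1, LAMP1, LAMP2, CTNS, ATP6V0E1 and ATP6V1D. In the second comparison 7 of the 8 were above 0, near the share of all members, 37 of 47 (78.7%). Of the members with a miR-16-5p site 9 of 10 were above 0 there, and of those with a let-7a-5p site 4 of 4. Sites of miR-19b-3p were in 5 members, of miR-92a-3p in 3, of let-7a-5p in 4, of miR-16-5p in 10 and of miR-10a-5p in 2, each a lower share than among all genes. The members' 3′ UTRs were shorter, with a median of 550 bases against 1144.5 for all genes with a transcript. The shares were not adjusted for UTR length, so they do not show that members hold fewer sites than their length allows. The 10 with the miR-16-5p site had a median of 0.09 in the second comparison, against 0.15 for the other members. The miRNAs themselves were not measured here.

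The mature miR-17-5p is shown with its seed in capitals, and below it 28 bases of the UTR of CTSA and LAMP1, the highest carriers in the second comparison. Capitals in the UTRs mark the seed match, and each UTR holds it once. The stretches come from GENCODE 29 and lie on GRCh38 at chr20:45898623-45898650 (CTSA, plus strand) and chr13:113323198-113323225 (LAMP1, plus).
miR-17-5p: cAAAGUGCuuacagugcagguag
CTSA: gggggcaagttaGCACTTTattcccgca
LAMP1: gctcaagggctgGCACTTTtttaaatat

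Further genes of the lysosomal system came from 6 lists, with 146 of 159 genes found in the table. In the first comparison none of the 146 rose and 4 fell, and in the second 6 rose and 7 fell, with medians of 0.03 and 0.11. Of all genes 1.46% rose and 2.04% fell in the first comparison, and 2.33% and 5.59% did in the second. Genes of mannose 6-phosphate sorting, which carries hydrolases to the lysosome, had medians of 0.05 and 0.19 over 22 genes, with 18 of the 22 above 0 in the second comparison and none past 0.5. IGF2R, the large receptor of that route, was at 0.21 and 0.24, and GNPTAB, which makes its tag, at 0.05 and 0.40. Of the TFEB family, TFEB was at log2 fold changes of 0.17 and 0.11, TFE3 at -0.11 and -0.21, and MITF at 0.04 and 0.05. Their denominator levels were 1.61, 10.2 and 1.05. For TFEB and MITF, near the lowest level of the table, the added 1 understates any change. With the regulators of mTORC1 at the lysosome, their list had medians of 0.06 and 0.12 over 22 genes. RRAGB at 0.57 and FNIP2 at 0.53 rose in the second comparison, a Rag GTPase and a folliculin partner.

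The other hydrolases and their activators had medians of -0.04 and -0.04 over 29 genes. In the second comparison SUMF1, which activates sulfatases, was at -1.18, HGSNAT, the acetyltransferase of heparan sulfate breakdown, at -0.59, and AGA at -0.52. FUCA1, a fucosidase, and GM2A, the activator for ganglioside GM2, fell in the first comparison, at -0.64 and -0.57.

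The other membrane proteins had medians of -0.0033 and 0.0015 over 34 genes, with wide ends in the second comparison. GPR137B at 1.02, the amino acid sensor SLC38A9 at 0.54 and the chloride exchanger CLCN7 at 0.51 rose there, and the sialic acid carrier SLC17A5 at -1.33, CD164 at -0.83 and LAPTM4A at -0.66 fell. LAPTM4A also fell in the first comparison, at -0.79. The 15 further V-ATPase subunits and assembly factors had medians of -0.04 and 0.20. In the second comparison 9 of them were above 0 and 6 below. The subunits ATP6V0A2 at -0.17, TCIRG1 at -0.36 and ATP6V1G2 at -0.13 were among the 6. TCIRG1 and ATP6V1G2 had low denominator levels of 1.47 and 1.01, and ATP6V0A2 one of 8.22. VMA21, which assembles V0, was at levels of 18.4, 8.42 and 24.5, with log2 fold changes of -1.05 and 0.39. Like ATP6V1E1, VMA21 was low in the first library alone. ATP6V0E2 was at 22.6, 18.9 and 9.96 and fell in the second comparison, at -1.11, while its close relative ATP6V0E1 was at 0.29 there. The 24 genes of HOPS tethering and lysosome positioning had medians of 0.03 and 0.12. None passed 0.5, as was so for 11618 and 11086 of all 12040 genes.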

How the data were processed

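Poly(A) RNA of 3 libraries was analysed from 1 deposited table without a header line. It holds a gene symbol, 3 columns of levels and 2 columns of log2 fold changes. The authors' deposited log2 fold changes were recomputed from the levels, within 5e-12 for every gene, as the log2 of (level + 1) over (denominator level + 1). The lowest denominator level was 1.00. The sources used here do not give the unit of the levels, the annotation or the use of strand, and depth is unknown. Per the submitters' processing notes, the build was hg19 and the tools, named with no role, were TopHat2 2.06, SAMtools, Cuffdiff 2.1.1, Cufflinks and CASAVA 1.8.2.

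No column was matched to a group, since none carries a name. Medians, counts past 0.5 and ranks were computed over all 12040 genes with Python 3.11.15, pandas 2.3.3 and numpy 2.4.6, by code tested on simulated data. Members and lists were chosen with earlier results of these data known. Values in every library are given for members past 0.5 in either comparison or their difference, and for the ends of each role group. Of the further lists, genes past 0.5 in either comparison are named, except 1 that is not reported here. The levels of CTSD, GLB1, LIPA, PSAP, LAMP2 and ATP6V1A, the fold changes of ATP6V1D, and the values of IGF2R, GNPTAB, TFEB, TFE3, MITF, ATP6V0A2, TCIRG1 and ATP6V1G2, were added after their values were seen. So were the directions of ATP6AP2 and ATP6V1C2. Transcripts came from GENCODE 29 (GRCh38), 1 protein-coding transcript a gene, and promoter and miRNA sequences from RefSeq (GRCh38.p14). No window was matched for ARSA, ASAH1, ATP6V0E1, ATP6V1A, ATP6V1B2, ATP6V1C1, ATP6V1H, CTSB, HEXA, LAMP2, MANBA, NAGLU, PSAP and SGSH. Alternatives were other pseudocounts, thresholds, re-centring, a floor on the denominator level, the mean, and least-squares adjustment for GC content and the lengths of transcript and 3′ UTR.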

Additional observations from a re-analysis of the deposited data

How the results depend on the processing

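No paired analysis was possible because each group has 1 library. The members' medians kept their sign and moved by less than 0.1 (log2) under each alternative, except that the first one was -0.0058 after adjustment for GC content and lengths, and -0.0086 as a mean. Of 150 values computed under alternatives, 135 stayed within 0.1 (medians) or 1.5 times (counts). Without a pseudocount, or with 0.1, NAGLU joined CTSZ below -0.5 in the second comparison (2 members), and without one SGSH joined NAGLU above 0.5 in the difference (2). After adjustment no member was at -0.5 or less in the second comparison (0) or at 0.5 or more in the difference (0), and the median difference of V0 was -0.35. The count at 0.5 or more in the second comparison was then 7, with CTSD and ATP6V0C added. The adjusted median difference of V1 was -0.24. Re-centring left LAMP1 just under 0.5 in the second comparison. At a threshold of 1, CTSA alone rose in the second comparison (1), and the counts of fallen members in both comparisons and of both directions in the difference were 0. At 0.4, the first comparison had 4 fallen members and the second 2, and 2 and 9 were past it upward and downward in the difference. With 1 library per group and unknown depth, the spread between cultures was not measured.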
